A study of Homo sapiens with 12 samples.

Results

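The 38 genes described here carry cells from G1 into S phase and copy their DNA: the E-type cyclins, CDK4, CDC25A and 2 E2F factors, the origin recognition and licensing proteins, the 6 subunits of the MCM helicase, the proteins that activate it, the polymerases and clamp factors of the fork, the enzymes of nucleotide synthesis, and factors that package new chromatin. They were taken by name, and each was represented by the brightest of its detected probes. Of the 38 genes, 37 were measured, among 13951 genes tested in all, and all 37 were detected on all 12 arrays. The probe of CCNE2, the second E-type cyclin, was detected on 0 arrays, and CCNE2 was not analysed further.

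H9 and CT2 are human embryonic stem cell lines, and their total RNA was hybridised to Illumina bead arrays. Cells of each line were untreated, received a mismatch shRNA (a control hairpin) or carried a knockdown of JMJD1C, a Jumonji-domain protein of the histone demethylase family KDM3, which made 6 groups of 2 arrays. The labels name neither the vector nor the time after treatment, and do not say whether the 2 arrays of a group came from separate cultures, so each p-value measures only the spread between these arrays. The files hold H9 and CT2 in separate blocks of columns, and differences between the lines cannot be told apart from differences between those blocks. Values are log2 intensities after background correction and quantile normalization, changes are differences of 2-array means on that scale, and a gene was called where limma's moderated test gave a Benjamini-Hochberg adjusted p under 0.05 over all 13951 genes.

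Entry into S phase is driven by cyclin-dependent kinases that release E2F factors from the retinoblastoma proteins, and E2F factors switch on many of the genes described here. In G1, the origin recognition complex, CDC6 and CDT1 load MCM2 to MCM7 rings onto DNA. At the start of S phase the kinases CDC7 and CDK2 act on these rings, and CDC45 and the GINS complex join them to form the moving helicase. Embryonic stem cells pass through G1 quickly and are known for high levels of these factors.

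The promoter windows of the members are shown first, because E2F sites are the sequence feature these genes are known for. RefSeq promoter windows on GRCh38.p14, from 250 bases before to 50 bases after a gene's start, were used for 33 of the 38 members, all but CCNE2, MCM4, MCM5, POLD3 and RPA2. A base could belong to more than 1 match. The E2F motif was searched in 4 spellings on both strands, the first TTCGCGC, the second TTGGCGC, the third TTCCCGC and the last TTGCCGC, and it occurred in 25 of 33 members (75.8%) and in 3564 of all 27305 windows (13.1%). The CCAAT box, searched as CCAAT on both strands, occurred in 18 of 33 members (54.6%) and in 35.7% of all windows. The CHR element of G2/M genes, searched as TTTGAA on both strands, occurred in 1 of 33 members (3.03%), RRM1, and in 15.4% of all windows.

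**Figure D1:**
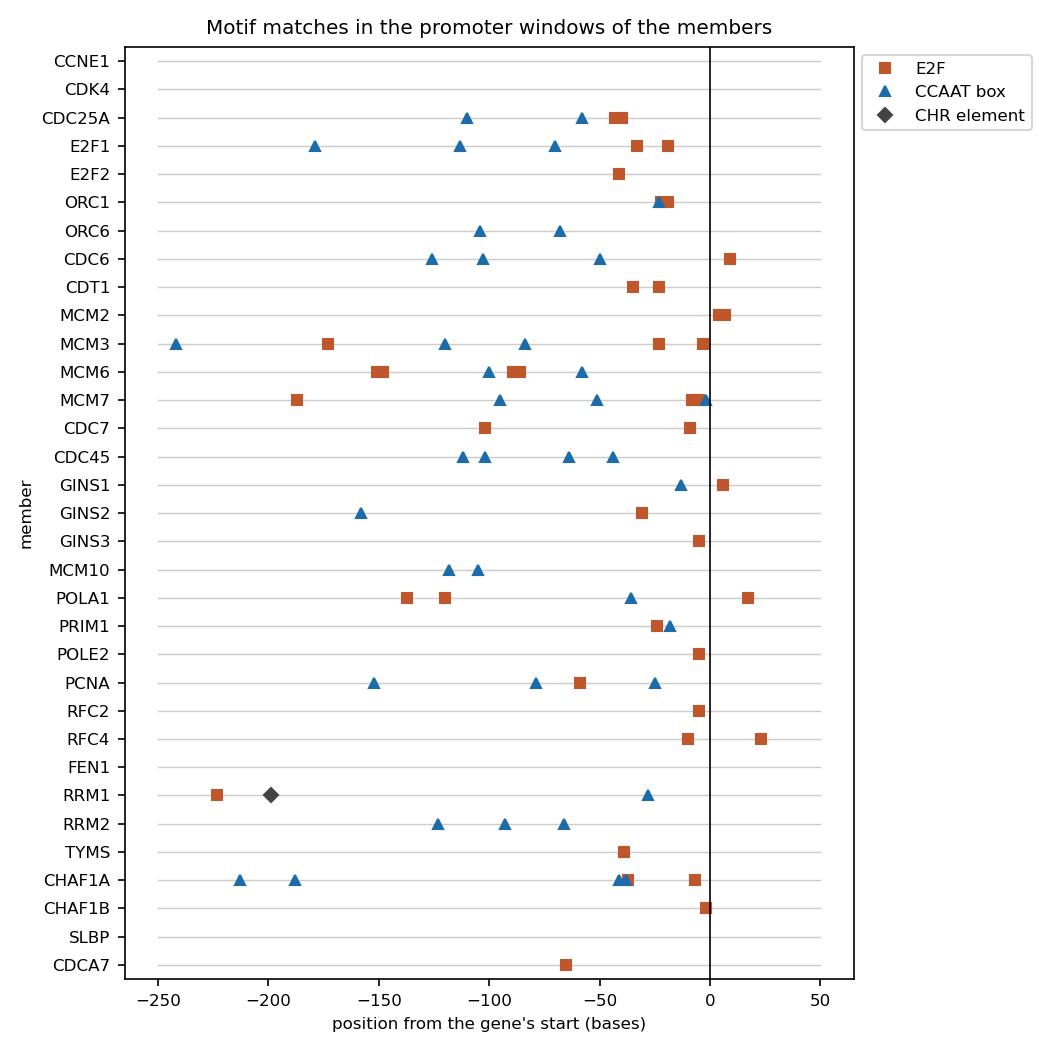
Matches to the E2F motif, the CCAAT box and the CHR element in the promoter windows of 33 members, as the position of the first base of each match from the gene's start, in bases. Squares, triangles and diamonds stand for the 3 motifs. Most E2F matches lie within 50 bases of the start, and 8 members show none.

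The windows of the 4 genes called in both comparisons that involve the CT2 mismatch arrays, described below, are printed 5′ to 3′ in the direction of the gene, with E2F matches in capitals.
CCNE1 (chr19:29811741-29812040, plus strand): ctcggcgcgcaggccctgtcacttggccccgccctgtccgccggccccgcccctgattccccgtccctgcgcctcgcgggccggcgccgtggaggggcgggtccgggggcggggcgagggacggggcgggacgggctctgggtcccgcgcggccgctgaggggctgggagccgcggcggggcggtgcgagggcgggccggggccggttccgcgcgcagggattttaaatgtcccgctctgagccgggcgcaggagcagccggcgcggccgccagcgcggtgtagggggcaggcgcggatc
MCM7 (chr7:100101348-100101647, minus strand): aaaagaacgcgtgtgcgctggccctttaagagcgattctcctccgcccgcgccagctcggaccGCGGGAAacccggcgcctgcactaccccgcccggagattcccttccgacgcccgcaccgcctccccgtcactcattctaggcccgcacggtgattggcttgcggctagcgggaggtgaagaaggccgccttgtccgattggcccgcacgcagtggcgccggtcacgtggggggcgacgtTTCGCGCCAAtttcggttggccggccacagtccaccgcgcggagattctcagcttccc
GINS3 (chr16:58392221-58392520, plus strand): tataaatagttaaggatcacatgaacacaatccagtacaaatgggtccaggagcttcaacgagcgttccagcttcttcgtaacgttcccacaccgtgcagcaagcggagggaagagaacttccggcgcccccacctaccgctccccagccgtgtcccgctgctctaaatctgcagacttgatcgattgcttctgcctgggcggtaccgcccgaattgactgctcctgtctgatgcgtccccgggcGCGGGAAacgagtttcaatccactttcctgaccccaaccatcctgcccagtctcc
FEN1 (chr11:61792661-61792960, plus strand): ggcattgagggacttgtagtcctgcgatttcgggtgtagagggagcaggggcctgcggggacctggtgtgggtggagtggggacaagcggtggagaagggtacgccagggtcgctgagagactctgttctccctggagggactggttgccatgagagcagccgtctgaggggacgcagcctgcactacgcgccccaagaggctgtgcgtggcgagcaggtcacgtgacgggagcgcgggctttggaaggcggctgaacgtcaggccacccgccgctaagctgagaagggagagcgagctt
The GINS3 window holds 1 match, whose first base lies 5 bases before the start. The MCM7 window holds 3 matches, of which those at 8 and 5 bases before the start overlap each other and a CCAAT box. No match was found in the CCNE1 and FEN1 windows, which says only that these letters are not in these 300 bases.

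The arrays of the CT2 mismatch group stand apart from the others, and they enter most of the results below. Over all genes, the 2 CT2 mismatch arrays correlated with each other at r = 0.967, while replicate 1 correlated best with CT2 knockdown replicate 1 (r = 0.976) and replicate 2 with H9 untreated replicate 1 (r = 0.971). H9 untreated replicate 2 and CT2 knockdown replicate 2 also correlated best with an array of another treatment, within their own line. In the other 5 groups the 2 arrays correlated at 0.979 to 0.991. Median raw intensity ran from 150.2 to 196.8, and 44.7% to 47.3% of the probes were detected on each array. Of 8 embryonic stem cell markers 7 were measured, and all 7 were detected on every array. PAX6, SOX1, TBXT, MESP1, SOX17, GATA6 and GATA4, which define neural, mesodermal and endodermal cells, had no probe with 1 gene symbol detected on 2 or more arrays. The neural markers NES, DCX and TUBB3 and the endoderm marker AFP were detected on all 12. EOMES, MIXL1, FOXA2, APOA1 and ELAVL3, other markers of these cells, were detected on 2, 3, 4, 5 and 7 arrays.

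JMJD1C itself was lower in the knockdown. Its log2 intensity in H9 was 12.49 and 11.54 untreated, 11.95 and 11.51 with mismatch shRNA, and 10.60 and 10.71 with knockdown. In CT2 it was 11.48 and 11.94 untreated, 12.06 and 12.38 with mismatch shRNA, and 10.77 and 10.71 with knockdown. All 4 knockdown arrays lay below all 8 others. Relative to the mismatch arrays it fell by 1.28 in log2 units averaged over the lines (SE 0.19, adjusted p = 0.000720), by 1.08 in H9 (adjusted p = 0.0438) and by 1.48 in CT2 (adjusted p = 0.00716). Of the alternative settings of processing, probes and arrays described at the end, the average passed under 18 of 18, CT2 under 13 of 14 and H9 under 3 of 13. Leaving out any 1 of the 4 H9 knockdown or mismatch arrays ended the H9 call, with adjusted p up to 0.419. In CT2 the fall did not pass with knockdown replicate 2 left out (adjusted p = 0.110). Against untreated cells it fell by 1.16 averaged over the lines (adjusted p = 0.00251), and the fall of 0.97 in CT2 alone did not pass (adjusted p = 0.181). A change in a gene's level in these bulk RNA samples cannot be told apart from a change in the share of cells in the phase that expresses it.

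The median member was lowest on the CT2 mismatch arrays. It lay 0.33 and 0.24 log2 units below its mean over the 12 arrays on CT2 mismatch replicates 1 and 2. On the other 10 arrays this median ran from −0.05, on CT2 knockdown replicate 1, to 0.16, on H9 untreated replicate 2. The median over all genes was 0.03 and −0.07 on the same CT2 mismatch arrays. All 7 role groups had medians below 0 on both CT2 mismatch arrays. The MCM subunits lay at −0.45 and −0.33, the chromatin assembly genes at −0.38 on both, and the helicase activation factors at −0.31 and −0.34. The replicates differed most in nucleotide synthesis, at −0.48 and −0.04. Single role groups also left their mean on other arrays: nucleotide synthesis lay at 0.57 and 0.43 on the H9 untreated arrays, 0.41 on H9 knockdown replicate 2 and −0.32 on CT2 untreated replicate 1, and licensing lay at 0.31 on that last array.

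**Figure D2:**
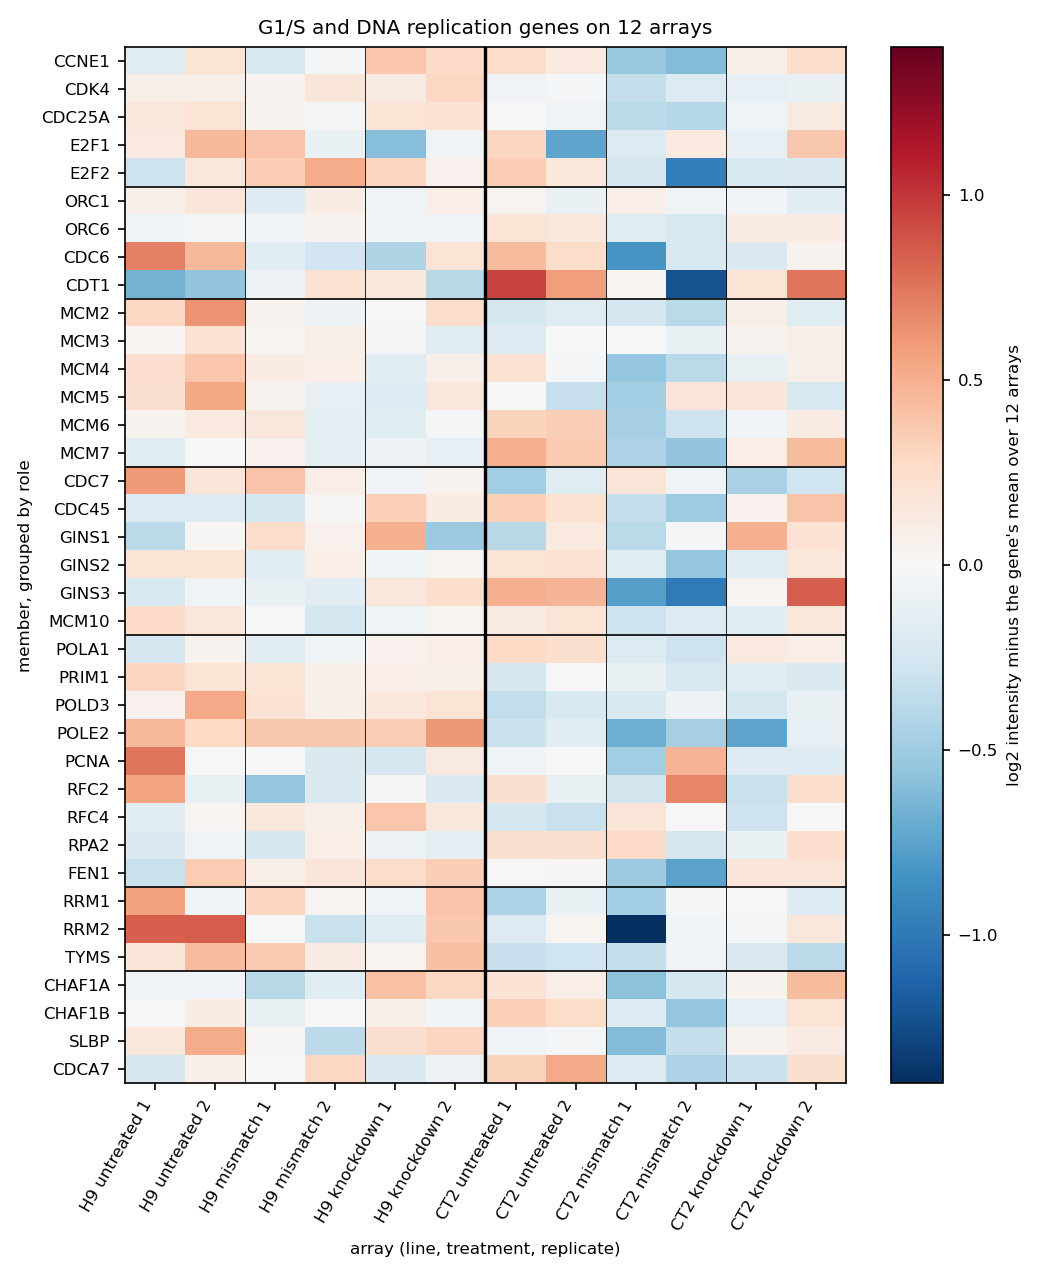
Log2 intensity of 37 members on 12 arrays minus each gene's own mean over the arrays, as colour. Rows are grouped by role, in the order used in the text, and columns by line, treatment and replicate; the thick line separates H9 from CT2. The CT2 mismatch columns are mostly blue, from cyclins to chromatin assembly, while the member medians of the CT2 knockdown columns are −0.05 and 0.12.

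Mismatch shRNA against untreated cells asks how the members respond to the control hairpin alone. In CT2, 11 of 37 members were lower and 0 higher: CCNE1, E2F2, ORC6, CDT1, MCM4, MCM6, MCM7, CDC45, GINS3, FEN1 and CDCA7. Over all genes, 6.39% were called lower and 4.62% higher in this comparison. The median member was 0.37 log2 units lower, against 0.01 lower for all genes. Of the members, 21 lay lower on both mismatch arrays than on both untreated ones, 3 lay higher and 13 overlapped, where 51.9% of all genes did not overlap and 26.6% lay lower. The count was 12 without CT2 mismatch replicate 1, 5 without CT2 mismatch replicate 2, 1 without CT2 untreated replicate 1 and 2 without CT2 untreated replicate 2. Of 14 alternatives, the call was kept under 13 for MCM7 and GINS3, 11 for MCM6, 10 for CCNE1 and CDT1, 8 for CDCA7, 6 for MCM4 and CDC45, 5 for E2F2 and FEN1 and 4 for ORC6. Of the 15 members with several detected probes, 7 had another probe of opposite sign in this comparison.

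In H9 the same comparison called 0 of 37 members, with 0 higher and 4 lower at an unadjusted p under 0.05, beside 0.0502% of all genes called. Members moved by −1.0 (RRM2) to 0.68 (CDT1) there, with a median of −0.10, against 0.05 for all genes. Without overlap between the arrays, 4 members lay higher and 11 lower, and 22 overlapped. Of all genes 41.7% did not overlap, 25.05% as higher and 16.6% as lower. As the mean of both lines it called 0 members, with 1 higher and 16 lower at an unadjusted p under 0.05, beside 1.19% of all genes; the count was 2 without CT2 mismatch replicate 1 and 5 without replicate 2.

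Knockdown against mismatch shRNA is the comparison against the hairpin control. As the mean of both lines, 5 of 37 members were higher and 0 lower: CCNE1, CDC45, GINS3, FEN1 and CHAF1A. Over all genes, 6.56% were called and 3.18% were higher. The median member was 0.15 higher, against 0.01 for all genes. Over all genes 444 were higher and 471 lower, or 610 and 313 with median scaling, under which the all-gene median was 0.12 and the members' median 0.28. The comparison uses the mismatch arrays described above, so a low level there enters both it and the comparison of mismatch shRNA with untreated cells. The count was 7 without CT2 mismatch replicate 1, 5 without CT2 mismatch replicate 2 and 0 without CT2 knockdown replicate 2, and it was 1 or 2 when 1 of the 4 H9 arrays was left out.

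Within CT2, 4 members were higher and 0 lower in knockdown than with mismatch shRNA: CCNE1, MCM7, GINS3 and FEN1. Over all genes, 4.56% were called and 2.75% were higher. The median member was 0.31 higher, and 22 members lay higher on both knockdown arrays, 1 lay lower and 14 overlapped, where 44.3% of all genes did not overlap and 23.9% lay higher. The count was 6 without CT2 mismatch replicate 1, 3 without CT2 mismatch replicate 2, 2 without CT2 knockdown replicate 1 and 0 without CT2 knockdown replicate 2. Of 14 alternatives, GINS3 passed under 13, MCM7 under 11, FEN1 under 8 and CCNE1 under 5, and 8 of the 15 members with several detected probes had another probe of opposite sign.

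Within H9, 0 members were called in knockdown against mismatch shRNA, with 2 higher and 0 lower at an unadjusted p under 0.05, beside 2.55% of all genes. The median member was 0.05 higher, against 0.01 for all genes. Without overlap, 10 members lay higher and 6 lower, and 21 overlapped. Of all genes 47.3% did not overlap, 23.2% as higher and 24.0% as lower. The difference between the lines in this comparison was called for 0 members, with 0 higher in H9 and 7 lower at an unadjusted p under 0.05, beside 0.416% of all genes.

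Against untreated cells, 0 members were called in knockdown: 0 averaged over the lines, 0 in H9 and 0 in CT2, beside 3.43%, 3.10% and 0.308% of all genes. At an unadjusted p under 0.05, 0 members were higher in each of the 3, and 3, 2 and 1 were lower. The median member was 0.07 lower averaged over the lines, 0.07 lower in H9 and 0.05 lower in CT2; with median scaling it was 0.01 lower, 0.04 higher and 0.02 higher, where the median of all genes was 0.09, 0.09 and 0.07 higher. In CT2, 4 members lay higher, 10 lower and 23 overlapped between the knockdown and untreated arrays. Of all genes 44.6% did not overlap there, 23.6% as higher and 20.9% as lower. In H9 the member counts were 8, 13 and 16, where 47.3% of all genes did not overlap, 26.5% as higher and 20.8% as lower.

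**Figure D3:**
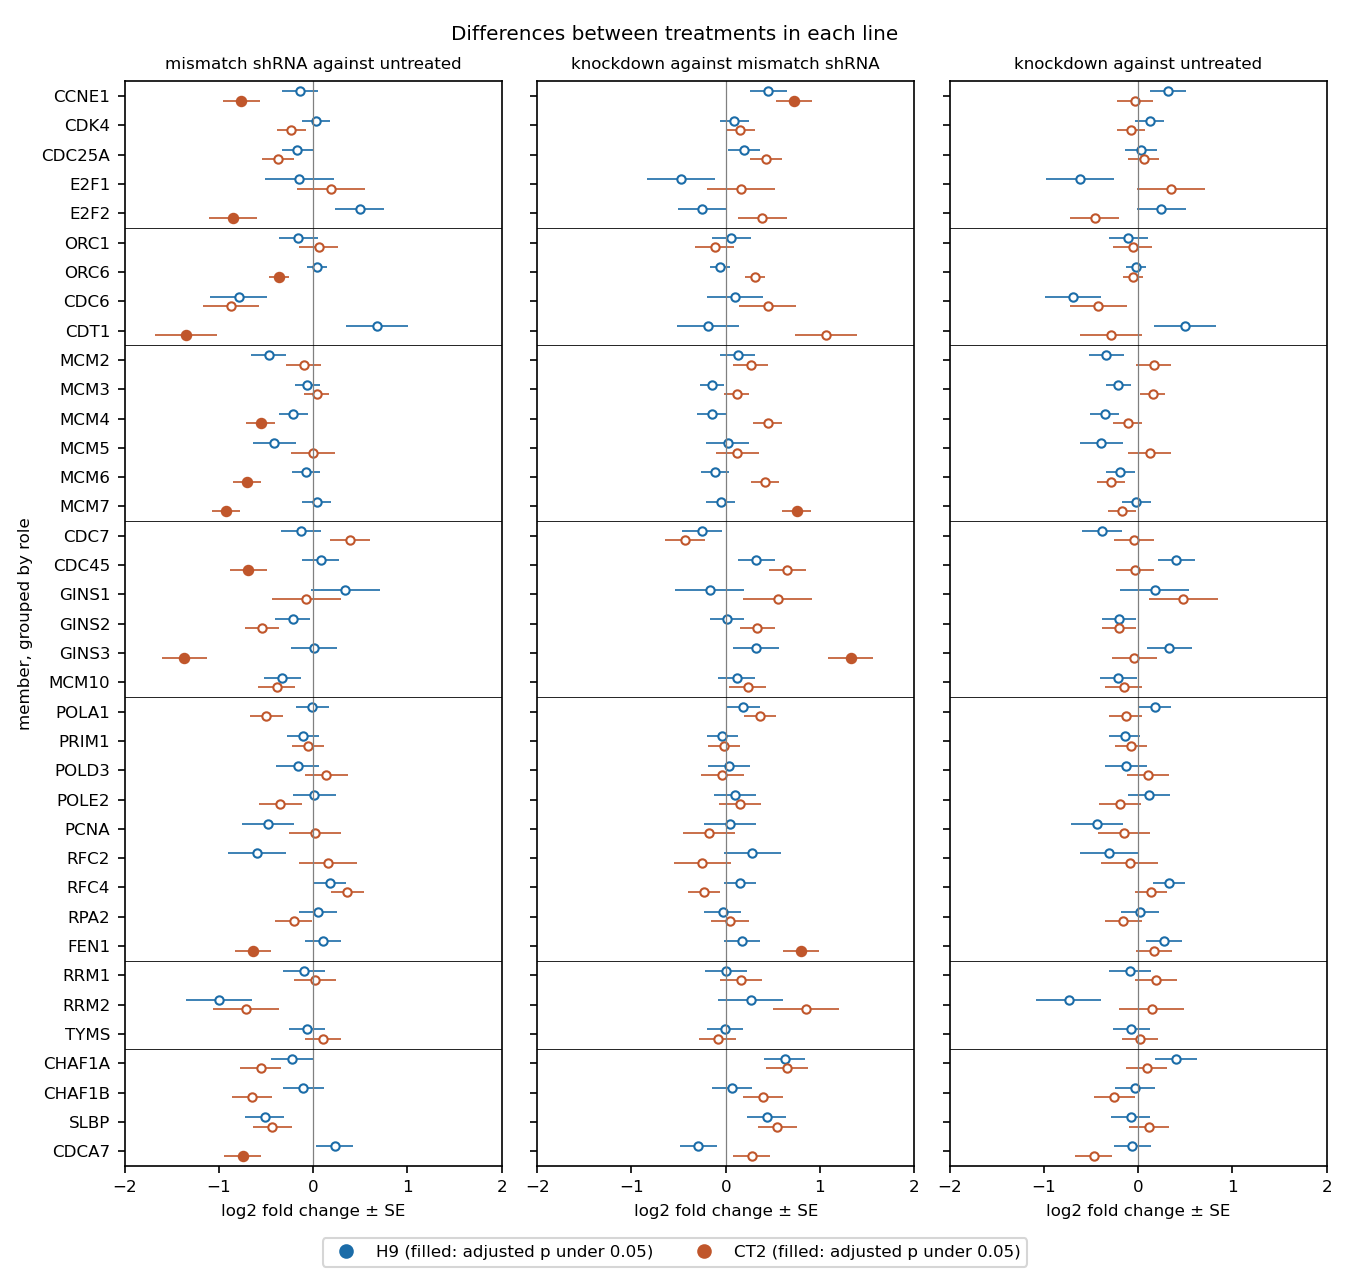
Log2 fold changes of 37 members in each line, with bars of 1 SE, for mismatch shRNA against untreated (left), knockdown against mismatch shRNA (middle) and knockdown against untreated (right). Blue points are H9 and orange points CT2, and filled points passed an adjusted p under 0.05. The left and middle panels share the mismatch arrays; filled points appear only for CT2, 11 to the left of 0 in the left panel and 4 to the right in the middle panel, and none in the right panel.

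Among the cyclins, kinases and E2F factors, CCNE1, the cyclin partner of CDK2 at the entry into S phase, was called in 3 comparisons. In CT2 its log2 intensity was 11.73 and 11.61 untreated, 10.95 and 10.87 with mismatch shRNA, and 11.55 and 11.72 with knockdown. In H9 it was 11.31 and 11.67, then 11.25 and 11.45, then 11.87 and 11.74. The CT2 mismatch arrays were the lowest of the 12, and the H9 knockdown arrays were the highest. Knockdown exceeded mismatch shRNA by 0.59 averaged over the lines (SE 0.14, adjusted p = 0.0152), which is 1.51-fold. In CT2, CCNE1 was 0.76 lower with mismatch shRNA than untreated (adjusted p = 0.0201) and 0.73 higher in knockdown than with mismatch shRNA (adjusted p = 0.0432). Another CCNE1 probe gave −0.09 and 0.43 for these CT2 comparisons.

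E2F2, an activating E2F factor, read 10.27 and 10.07 in untreated CT2, 9.68 and 8.96 with mismatch shRNA, and 9.71 and 9.72 with knockdown. In H9 it read 9.64 and 10.08 untreated, 10.27 and 10.44 with mismatch shRNA, and 10.22 and 9.98 with knockdown. It was therefore lowest on the mismatch arrays in CT2 and highest on them in H9. The CT2 change from untreated to mismatch shRNA was −0.85 (SE 0.26, adjusted p = 0.0443). E2F1 ranged from 6.96 to 8.16 over the arrays and its CT2 untreated replicates differed by 1.04, and no comparison of it passed. CDK4, the kinase partner of D-type cyclins, and CDC25A, the phosphatase that activates CDK2, ranged from 12.89 to 13.52 and from 11.60 to 12.21, with the lowest 2 values of each on the CT2 mismatch arrays; neither was called in any comparison.

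Of the origin recognition and licensing genes, CDT1, the MCM loading factor, had the widest swing. Its log2 intensity in CT2 was 12.50 and 12.14 untreated, 11.59 and 10.34 with mismatch shRNA, and 11.75 and 12.31 with knockdown. In H9 it was 10.90 and 11 untreated, 11.49 and 11.77 with mismatch shRNA, and 11.72 and 11.17 with knockdown. CT2 mismatch arrays lay below untreated CT2 and H9 mismatch arrays above untreated H9. The CT2 change was −1.35 (SE 0.33, adjusted p = 0.0176), and it rests on replicates that differ by 1.25 from each other. Its difference of 1.06 between knockdown and mismatch shRNA in CT2 did not pass (adjusted p = 0.0796).

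ORC6, the smallest subunit of the origin recognition complex, read 15.87 and 15.84 in untreated CT2, 15.51 and 15.46 with mismatch shRNA, and 15.80 and 15.80 with knockdown. The H9 arrays lay between 15.62 and 15.73. The CT2 change to mismatch shRNA was small at −0.37 but exceeded its SE of 0.11 (adjusted p = 0.0358). Another ORC6 probe gave 0.46 for it, the opposite direction. CDC6, which loads MCM rings together with CDT1, had the same sign in both lines for mismatch shRNA against untreated, −0.79 in H9 and −0.87 in CT2, and neither passed (adjusted p = 0.418 and 0.0725). ORC1 kept between 10.19 and 10.54 on all arrays.

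Of the 6 MCM subunits 3 were called in CT2. MCM7 read 14.77 and 14.64 in untreated CT2, 13.84 and 13.72 with mismatch shRNA, and 14.36 and 14.71 with knockdown. On the 6 H9 arrays it lay between 14.12 and 14.33. The CT2 mismatch arrays were thus below every other array. In CT2, MCM7 fell by 0.92 with mismatch shRNA (SE 0.15, adjusted p = 0.00192) and was 0.75 higher in knockdown than with mismatch shRNA (SE 0.15, adjusted p = 0.0108). Its other 2 probes gave −0.88 and 0.01 for the first of these and 0.82 and 0.19 for the second.

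MCM6 read 14.29 and 14.33 in untreated CT2, 13.52 and 13.69 with mismatch shRNA, and 13.94 and 14.10 with knockdown, with no overlap among the 3 groups. Its CT2 change to mismatch shRNA was −0.70 (SE 0.15, adjusted p = 0.00871). MCM4 read 13.91 and 13.67, then 13.15 and 13.32, then 13.59 and 13.77, and changed by −0.56 with mismatch shRNA (adjusted p = 0.0302). Its second probe gave 0.65, the opposite direction. MCM2, MCM3 and MCM5 changed by −0.10, 0.04 and −0.00 in the same comparison by the probe used and were not called. A second MCM3 probe gave 0.61 there. Whether the subunits differ from each other in this change was not tested.

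Among the factors that activate the helicase, GINS3, a subunit of the GINS complex, showed the largest differences between treatments that passed in CT2. Its log2 intensity in CT2 was 11.17 and 11.14 untreated, 9.89 and 9.68 with mismatch shRNA, and 10.71 and 11.52 with knockdown. In H9 it was 10.46 and 10.62, then 10.57 and 10.52, then 10.83 and 10.91. The CT2 mismatch arrays were the lowest of the 12, and in H9 the knockdown arrays lay above the other 4. GINS3 fell by 1.37 with mismatch shRNA in CT2 (SE 0.24, adjusted p = 0.00329). In knockdown it was 1.33 higher than with mismatch shRNA in CT2 (SE 0.24, adjusted p = 0.00658) and 0.82 higher averaged over the lines (SE 0.17, adjusted p = 0.00777), or 1.77-fold. In H9 the change was 0.32 and was not called. The call averaged over the lines held under 17 of 18 alternatives and was lost without CT2 knockdown replicate 2, the highest array (adjusted p = 0.0541).

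CDC45, the helicase cofactor that joins GINS and MCM, read 11.81 and 11.69 in untreated CT2, 11.14 and 10.98 with mismatch shRNA, and 11.54 and 11.88 with knockdown. In H9 it read 11.29 and 11.29, then 11.23 and 11.50, then 11.81 and 11.58. Knockdown arrays lay above mismatch arrays in both lines. The mean difference was 0.49 (SE 0.14, adjusted p = 0.0447), which passed under 8 of 18 alternatives. GINS1, GINS2 and MCM10 were not called in any comparison, and GINS1, at 6.04 to 7.06, differed by 1.01 between the H9 knockdown replicates. CDC7, the kinase that triggers the loaded helicase, had the values 0.39 for mismatch shRNA against untreated and −0.43 for knockdown against mismatch shRNA in CT2, and neither passed.

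Of the 9 polymerase, clamp and fork genes only FEN1, the flap endonuclease that trims Okazaki fragments, was called. In CT2 it read 13.35 and 13.38 untreated, 12.85 and 12.61 with mismatch shRNA, and 13.53 and 13.53 with knockdown. In H9 it read 13.05 and 13.72, then 13.44 and 13.53, then 13.62 and 13.70. In CT2 the 3 groups did not overlap, while in H9 the untreated arrays spanned the other groups. Knockdown exceeded mismatch shRNA by 0.80 in CT2 (SE 0.19, adjusted p = 0.0270) and by 0.49 averaged over the lines (adjusted p = 0.0379), the latter under 8 of 18 alternatives. The CT2 change to mismatch shRNA was −0.64 (adjusted p = 0.0408). Another FEN1 probe gave 0.36 and −0.39 for these CT2 comparisons, and neither call was kept with the mean of all detected probes (adjusted p = 0.0849 and 0.0896).

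The other 8 fork genes, POLA1, PRIM1, POLD3, POLE2, PCNA, RFC2, RFC4 and RPA2, had changes of −0.50 (POLA1) to 0.36 (RFC4) with mismatch shRNA in CT2 by the probe used. A second RFC2 probe gave −1.29 there, against 0.16 for the probe used, and a second PCNA probe −0.36 against 0.02. PCNA, the sliding clamp, and RFC2, a subunit of its loader, read 12.68 and 10.42 on CT2 mismatch replicate 1 but 13.64 and 11.36 on replicate 2. Their 2 mismatch arrays thus spanned the untreated CT2 values, which were 13.11 and 13.17 for PCNA and 10.90 and 10.57 for RFC2. A like gap was seen for RRM2, the inducible subunit of ribonucleotide reductase, at 9.41 and 10.90. RRM2 changed by −1.0 in H9 and by −0.71 in CT2 from untreated to mismatch shRNA, and neither passed (adjusted p = 0.409 and 0.208). RRM1, the large subunit, and TYMS, thymidylate synthase, changed by 0.02 and 0.11 in CT2.

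Of the genes for chromatin assembly and histone mRNA, CHAF1A, the large subunit of the histone chaperone CAF-1, was higher in knockdown than with mismatch shRNA averaged over the lines. In H9 it read 10.17 and 10.19 untreated, 9.85 and 10.06 with mismatch shRNA, and 10.64 and 10.52 with knockdown. In CT2 it read 10.43 and 10.33, then 9.66 and 9.98, then 10.28 and 10.67. In both lines all knockdown arrays lay above all mismatch arrays, and in H9 they also lay above the untreated arrays. The difference of knockdown from mismatch shRNA was 0.63 in H9 and 0.65 in CT2, neither called alone, and 0.64 as the mean (SE 0.16, adjusted p = 0.0203), or 1.56-fold. It passed under 13 of 18 alternatives and was lost without any 1 of the H9 knockdown or mismatch arrays, or without CT2 knockdown replicate 2.

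CDCA7, a partner of the remodeller HELLS, read 13.45 and 13.66 in untreated CT2, 12.93 and 12.69 with mismatch shRNA, and 12.82 and 13.35 with knockdown, so that the knockdown and mismatch arrays overlapped. Its CT2 change to mismatch shRNA was −0.75 (SE 0.20, adjusted p = 0.0237). CHAF1B, the middle subunit of CAF-1, and SLBP, which binds the end of histone mRNA, changed by −0.65 and −0.43 there and were not called. SLBP was 0.43 higher in H9 and 0.55 higher in CT2 in knockdown than with mismatch shRNA, without overlap of the arrays; a second SLBP probe gave 0.01 and −0.06.

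**Figure D4:**
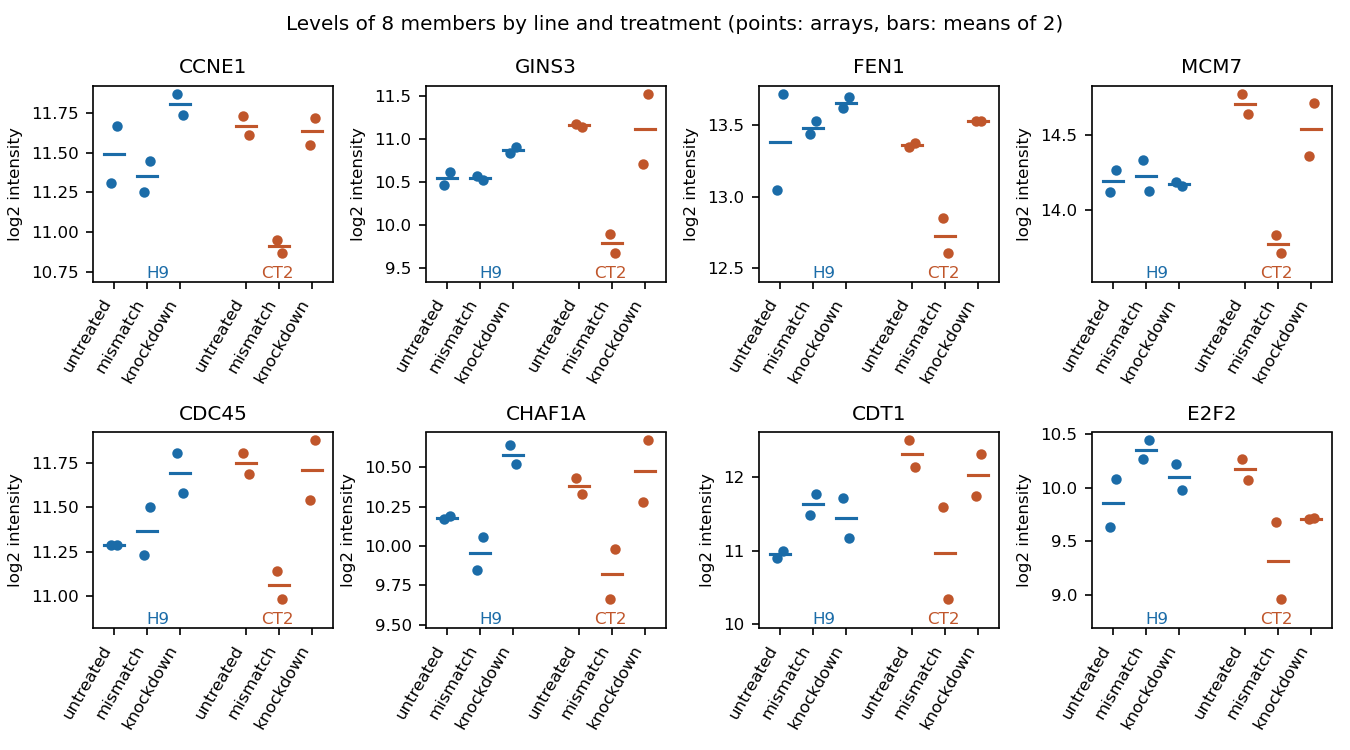
Log2 intensity of CCNE1, GINS3, FEN1, MCM7, CDC45, CHAF1A, CDT1 and E2F2 on each array, by line and treatment. Points are arrays, bars are means of 2 arrays, blue is H9 and orange is CT2, and each panel has its own vertical axis. The CT2 mismatch points are below the untreated CT2 points in all 8 panels, and the H9 knockdown points are above the H9 mismatch points for CCNE1, GINS3, FEN1, CDC45 and CHAF1A.

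The response to mismatch shRNA differed between the lines for 5 members, all higher in H9 than in CT2, beside 6.62% of all genes called and 4.12% called in that direction. The difference, H9 minus CT2, was 2.03 for CDT1 (95% interval 1.04 to 3.02, adjusted p = 0.0207), 1.38 for GINS3 (0.66 to 2.10, adjusted p = 0.0262) and 1.34 for E2F2 (0.57 to 2.12, adjusted p = 0.0389). It was 0.97 for CDCA7 (0.39 to 1.56, adjusted p = 0.0461) and 0.96 for MCM7 (0.51 to 1.41, adjusted p = 0.0178). CDT1, E2F2 and CDCA7 had opposite signs in the lines, while GINS3 and MCM7 had differences of 0.01 and 0.04 in H9. A second CDCA7 probe gave −0.81 in H9 and −0.49 in CT2, the same sign in both lines, and the other MCM7 probes gave −0.49 and −0.21 in H9. With the mean of all detected probes the line difference was 0.33 for CDCA7 and 0.38 for MCM7, and neither call was kept (adjusted p = 0.651 and 0.646). Of 17 alternatives, CDT1 passed under 12, MCM7 and GINS3 under 9, E2F2 under 6 and CDCA7 under 4. These counts rest on single arrays: 0 members were called without H9 untreated replicate 1, H9 mismatch replicate 2, or either CT2 untreated array, 1 without H9 mismatch replicate 1, 2 without CT2 mismatch replicate 2 and 9 without CT2 mismatch replicate 1.

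Before any treatment, 3 members were higher and 2 lower in H9 than in CT2, beside 14.7% of all genes called, 5.99% as higher and 8.76% as lower (835 and 1222 genes, or 1105 and 617 with median scaling). CDC7 read 12.07 and 11.64 in H9 and 10.99 and 11.31 in CT2, a difference of 0.70 (adjusted p = 0.0346). MCM2 was 0.67 higher (adjusted p = 0.0240) and TYMS 0.61 higher (adjusted p = 0.0433) in H9. CDT1 was 1.37 lower (adjusted p = 0.0131) and MCM7 0.51 lower (adjusted p = 0.0308) in H9. For each of these called genes the untreated arrays of the lines did not overlap. The MCM7 call was lost with the mean of all detected probes, and its difference ran from −0.585 to −0.131 over the alternatives. The count was 0 without either CT2 untreated array, 1 without H9 untreated replicate 1 and 4 without H9 untreated replicate 2. Of 13 alternatives, CDT1 passed under 10, MCM2 under 8, CDC7 under 6 and MCM7 and TYMS under 5.

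The members did not all follow the same pattern over the arrays. The correlation of each member with the median of the other members over the 12 arrays, which share 6 groups, was highest for MCM4 (r = 0.92), CDC25A (r = 0.88) and CCNE1 (r = 0.77). It was lowest for RFC4 (r = −0.21), CDC7 (r = −0.11), RPA2 (r = −0.09) and RFC2 (r = −0.08). By rank, the correlation was 0.69 for MCM4, 0.66 for CDC25A and 0.50 for CCNE1. For RFC4, CDC7, RPA2 and RFC2 it was −0.18, −0.13, −0.03 and 0.24. All these values are descriptions of 12 arrays in which the CT2 mismatch arrays lie at the low end.

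Other genes of the pathway were read from a list of 83 that are not members, of which 80 were measured. In knockdown against mismatch shRNA averaged over the lines, 5 were higher and 1 lower, which is 7.5% of the list beside 6.56% of all genes. UHRF1, which brings the maintenance methyltransferase to new DNA, was 0.78 higher (adjusted p = 0.00567), MCMBP, which binds MCM subunits, 0.76 higher (adjusted p = 0.0430), and POLA2, a subunit of polymerase alpha, 0.70 higher (adjusted p = 0.0113). CCND2, a D-type cyclin, was 0.60 higher (adjusted p = 0.00689) and POLE3, a subunit of polymerase epsilon, 0.46 higher (adjusted p = 0.0313). Mean levels in untreated, mismatch and knockdown CT2 were 12.26, 11.28 and 12.33 for UHRF1 and 8.29, 7.16 and 8.10 for MCMBP. They were 10.81, 9.48 and 10.67 for POLA2, 13.5, 12.72 and 13.24 for POLE3 and 13.39, 13.37 and 13.78 for CCND2. Low levels on the CT2 mismatch arrays thus enter these differences for all but CCND2. CCND1, the other D-type cyclin called, was 0.48 lower (adjusted p = 0.0199). In mismatch shRNA against untreated cells, UHRF1 alone was called averaged over the lines, at −0.77 (adjusted p = 0.0244), which is 1.25% of the list beside 1.19% of all genes. In CT2, 2 of the 80 were higher and 10 lower, beside 4.62% and 6.39% of all genes.

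Against untreated cells, 4 of these 80 genes were called in knockdown averaged over the lines, or 5% beside 3.43% of all genes. CCND2 was 0.73 higher (adjusted p = 0.00252) and CDKN1C, an inhibitor of G1 kinases, 1.26 higher (adjusted p = 0.00672). Mean CDKN1C levels in H9 were 7.35 untreated, 8.58 with mismatch shRNA and 9.38 with knockdown. In CT2 they were 8.61, 8.44 and 9.08. CDKN1C was not among the genes called against mismatch shRNA averaged over the lines. CCND1 was 0.62 lower (adjusted p = 0.00622) and TFDP2, a dimer partner of E2F factors, 0.77 lower (adjusted p = 0.0312). The comparisons of knockdown with untreated and with mismatch cells share the knockdown arrays.

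Genes of G2/M and histone genes were read in knockdown against mismatch shRNA averaged over the lines, where 6.56% of all genes were called. Of 30 genes of G2/M and mitosis, 0 were higher and 2 lower, or 6.67%, with a median of −0.19. Of 22 measured replication-dependent histone genes, whose mRNA is made in S phase, 12 were higher and 1 lower, or 59.1%, with a median of 0.89. Against untreated cells 7 of the 22 histone genes were higher and 1 lower, or 36.4% beside 3.43% of all genes, with a median of 0.48. That average covers unlike lines. Relative to its mean over the 12 arrays, the median histone gene lay at −0.46 and −0.25 on untreated H9 arrays. It lay at 0.55 and 0.46 on H9 knockdown arrays. In CT2 it lay at 0.29 and 0.29 untreated and at 0.25 and 0.48 with knockdown. On mismatch arrays it lay at −0.62 and −0.37 in H9 and at −0.18 and −0.35 in CT2. The CT2 mismatch arrays thus lay below the untreated ones, and their low level enters the comparison of knockdown with mismatch shRNA. Histone genes of the same family resemble each other, and probes may share signal between them. Whether these probes measure the amount of histone mRNA made in S phase was not tested.

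Some markers of other cell types also differed on the CT2 mismatch arrays, and a summed intensity weights its brightest markers most. In CT2, NES, DCX and ELAVL3 changed by −0.05, −0.16 and −0.46 from untreated to mismatch shRNA. FOXA2 and APOA1 changed by −0.30 and 0.02 there, and none of these markers was called. The summed normalized intensity of the 4 measured of 7 neural markers was 18530 to 18770 on untreated CT2 arrays, 8139 to 10630 on mismatch arrays and 16450 to 19050 on knockdown arrays, and TUBB3 was 1.49 lower with mismatch shRNA (adjusted p = 0.00402). The summed normalized intensity of the 3 measured of 6 endoderm markers was 1084 to 1292, then 499.7 to 532.9, then 1742 to 1803, and AFP was 1.37 lower with mismatch shRNA (adjusted p = 0.00519). Of the embryonic stem cell markers, SOX2 was 0.86 higher (adjusted p = 0.0236) and ZFP42 0.62 lower (adjusted p = 0.0288) in that comparison, while the sum of the 7 ran from 129100 to 140600 on mismatch arrays and from 125500 to 134900 on untreated ones. In H9, knockdown against mismatch shRNA gave −1.22 for ZFP42 (adjusted p = 0.000662). In CT2 the same comparison gave 0.66 for ZFP42 (adjusted p = 0.039), the opposite direction, and the line difference was called (adjusted p = 0.000816). Among genes listed as fibroblast markers, H9 gave −1.57 for COL1A1 (adjusted p = 0.00499) and 0.87 for THY1 (adjusted p = 0.00700). The sum of the 4 measured of 6 fibroblast markers was 9423 to 9974 on H9 mismatch arrays and 13680 to 14490 on H9 knockdown arrays. THY1 was the brightest of the 4, at 12.42 to 13.53 over all 12 arrays, untreated ones included. Whether this sum follows fibroblasts was not tested. COL1A2 and DCN changed by 0.06 and 0.38 in H9 and were not called. DCN was detected on 6 of the 12 arrays. The part of these differences in the members' levels was not tested.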

How the data were processed

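Bead-array intensities of 12 arrays were analysed. The deposited file holds the mean bead intensity per probe and a detection p-value per probe and array, not normalized per the file headers. A second deposited table holds intensities that the authors normalized by a method not given in the sources used here, with column medians of 179.8 to 180.3; its lowest value is 66.42 in all H9 columns and 71.09 in all CT2 columns. GenomeStudio is named in the submitters' processing notes, with no version. RNA was extracted with a column kit, treated with DNase and amplified with biotin labelling, per the labels.

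From the deposited intensities, log2 values were computed with limma 3.58.1 in R 4.3.3 by neqc, which fits background from detection p-values, adds an offset of 16 and quantile-normalizes. Of 47314 probes, 25905 were kept, with a detection p-value under 0.05 on at least 2 arrays, and 19076 of these had 1 gene symbol; probe names came from the platform annotation, which can be old. The brightest kept probe stood for a gene, which gave 13951 genes. Group means of 6 groups were fitted with lmFit on 12 arrays, with eBayes using an intensity trend and robust settings, and p-values were adjusted by Benjamini-Hochberg. With 2 arrays per group, the number of arrays limits the precision. The script was tested on simulated data.

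The 38 members, the gene lists and the tests were chosen with earlier results of these data known. Named genes are all members, JMJD1C and genes of the list of other G1/S and DNA replication genes called averaged over the lines; those called in knockdown against untreated cells, the markers called and the examples of replicate gaps were named after their values were seen. Alternatives covered background correction, scaling, the authors' table, probe filters, probe choice, the replicate number as a block, variance settings, array weights and arrays left out. Promoters were RefSeq windows on GRCh38.p14, matched by symbol. Figures were drawn with matplotlib 3.10.9.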

Additional observations from a re-analysis of the deposited data

Results flagged for a closer look

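The response to mismatch shRNA differed between H9 and CT2 by a test of the difference itself for 5 members. The difference, H9 minus CT2 on the log2 scale, was 2.03 for CDT1, 1.38 for GINS3, 1.34 for E2F2, 0.97 for CDCA7 and 0.96 for MCM7, with limma's adjusted p from 0.0178 to 0.0461. For CDCA7 and MCM7 it was 0.33 and 0.38 with the mean of all detected probes, and neither was called. CDT1 was higher with mismatch shRNA than untreated on both H9 arrays and lower on both CT2 arrays, and the same held for E2F2. The 2 CT2 mismatch arrays correlate less with each other than each does with an array of another group, and the part of that in these differences was not tested.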

How the results depend on the processing

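The fall of JMJD1C from mismatch shRNA to knockdown was called under 18 of 18 alternatives averaged over the lines; for each line alone the alternatives were added after seeing the data, and it was called under 3 of 13 in H9 and 13 of 14 in CT2. Counts of called members moved by more than 1.5 times as follows. For knockdown against mismatch shRNA averaged over the lines (5), the count was 3 under the replicate block and 3 with plain eBayes (no trend or robust settings). Within CT2 (4), it was 1 with the mean of all kept probes, 1 with plain eBayes and 2 with array weights. For mismatch shRNA against untreated in CT2 (11), it was 7 with median scaling, 5 with the mean of all kept probes, 7 under the replicate block, 4 with plain eBayes and 6 with array weights. As the mean of both lines (0), it was 1 with median scaling. For the line difference of this comparison (5), it was 3 with median scaling, 3 without a filter on dim probes, 3 with the mean of all kept probes, 3 under the replicate block and 0 with plain eBayes. For untreated H9 against CT2 (5), it was 2 with median scaling, 2 under the replicate block and 1 with plain eBayes. With H9 untreated replicate 1 and CT2 mismatch replicate 2 both left out, the counts were 8 for mismatch shRNA against untreated averaged over the lines, 7 in CT2, 1 for its line difference and 1 for the line difference of knockdown against mismatch shRNA. Over 15 pairs of groups, the deviations of same-numbered arrays from their group means correlated at −0.37 to 0.39 and exceeded 0.1 in 4. These pairs pool both lines, and pairing by replicate number within a line was not tested. Why calls were lost under the block was not tested.

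Leaving out 1 array at a time, the count ran from 0 to 7 for knockdown against mismatch shRNA averaged over the lines, 0 to 6 in CT2 and 0 to 2 for its line difference. It ran from 0 to 5 for mismatch shRNA against untreated as the mean, 1 to 12 in CT2 and 0 to 9 for its line difference, and from 0 to 4 for untreated H9 against CT2. It was 0 throughout for knockdown against untreated cells, where 0 members were called under any alternative run, as in both H9 comparisons with the mismatch arrays. In mismatch shRNA against untreated in CT2, ORC6 reversed to 0.0473 and MCM4 to 0.0448 with the mean of all kept probes, because their second probes went the other way. Median scaling turned called genes towards higher by over 10 percentage points also in knockdown against mismatch shRNA in H9 (157 higher and 152 lower, from 138 and 218) and in CT2 (424 and 147, from 384 and 252), in its line difference (33 and 39, from 17 and 41), in knockdown against untreated cells averaged over the lines (253 and 162, from 218 and 260) and in mismatch shRNA against untreated in H9 (5 and 12, from 1 and 6). The authors' table was not run for differences between the lines, since its lowest value differs between the columns of the lines. The causes of these moves were not tested, apart from those of the probe averages. With 2 arrays per group, a lone array left in a group is assumed to vary like the other groups.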
